A study of Mus musculus with 86 samples.

Results

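The collecting duct, the last segment of the kidney tubule, holds principal cells, which take up water and sodium, and intercalated cells, which move acid and base. A set of 10 genes that mark these cells was followed in mouse kidney: 5 of principal cells (Aqp2, Aqp3, Avpr2, Scnn1b and Scnn1g) and 5 of intercalated cells (Atp6v1b1, Atp6v0d2, Slc4a1, Foxi1 and Slc26a4). They were chosen by name, and all 10 were found among 31054 genes with read counts and among 38277 genes with FPKM (fragments per kilobase of transcript, scaled to sequencing depth).

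The samples come from a study of MERTK, a receptor tyrosine kinase of macrophages, in organ scarring. In the knockout experiment, kidneys had sham surgery or unilateral ureteral obstruction (UUO), in which a blocked ureter dilates and scars the kidney. The groups used were sham in wild type (3 libraries), UUO in wild type (3), sham in mice labelled Mertk knockout (4) and UUO in mice so labelled (4). In the inhibitor experiment all mice were labelled wild type and were injected with DMSO, the solvent, or with UNC569, a MERTK inhibitor: sham with DMSO (3 columns), UUO with DMSO (4), sham with UNC569 (3) and UUO with UNC569 (7 columns for 8 samples). The labels give no age, sex, strain, time after surgery, dose or knockout allele. They call the libraries bioreplicates without naming animals or batches, so p-values measure only the spread between these libraries. The columns of the inhibitor experiment name a group but no sample, and are called here by group and number, counted from 0.

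Reads in genes ranged from 7216322 to 28451863 per library used, with the fewest in sham WT 3, where 58.491% of reads were unmapped. In UUO KO 4 the unmapped share was 32.022%, and in every other library used it was at most 8.78%. The depth behind the FPKM is unknown. Mertk ranged from 51.1 to 79.6 CPM (counts scaled to the library total) in the wild-type libraries used and from 44.5 to 83.5 CPM in those labelled knockout, so the whole-gene count of Mertk gives no check of the knockout, and each group keeps the name its label gives. The libraries labelled sham WT 1 and UUO WT 1 were left out by the choice of samples. UUO WT 1 held 0 to 78 reads of each of the 10 genes, and sham WT 1 held 127 reads of Atp6v0d2 and at most 5 of any other.

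As background, vasopressin binds the receptor encoded by Avpr2 on principal cells, raises cAMP and brings the water channel encoded by Aqp2 to the apical membrane. Water leaves through the basolateral channel encoded by Aqp3, and sodium enters through the epithelial channel ENaC, built from the products of Scnn1a, Scnn1b and Scnn1g. In intercalated cells the forkhead transcription factor Foxi1 switches on genes of the proton pump V-ATPase, among them Atp6v1b1 and Atp6v0d2, and of anion exchangers. Acid-secreting cells carry the chloride-bicarbonate exchanger encoded by Slc4a1, and base-secreting cells carry pendrin, encoded by Slc26a4. In whole kidney, fewer cells of a type and less RNA per cell cannot be told apart.

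Upstream DNA is shown for 1 gene of each cell type, since letters known to be read by forkhead, GATA and cAMP-responsive factors occur there. The 250 bases before the RefSeq start (GRCm38.p6) are printed 5′ to 3′ on the gene's strand. Capitals in Aqp2 (chr15:99578806-99579055, plus strand) mark the reverse complement of the cAMP response element core TGACGT, 212 bases before the start, and of the GATA motif AGATAA, 202 bases before it. Capitals in Atp6v1b1 (chr6:83742767-83743016, plus strand) mark the forkhead motif TGTTTAC, 98 bases before the start.
Aqp2: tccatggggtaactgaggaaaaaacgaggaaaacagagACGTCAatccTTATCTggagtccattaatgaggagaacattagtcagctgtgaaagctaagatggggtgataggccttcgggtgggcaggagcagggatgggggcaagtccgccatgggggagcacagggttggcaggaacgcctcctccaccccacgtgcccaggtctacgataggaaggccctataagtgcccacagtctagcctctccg
Atp6v1b1: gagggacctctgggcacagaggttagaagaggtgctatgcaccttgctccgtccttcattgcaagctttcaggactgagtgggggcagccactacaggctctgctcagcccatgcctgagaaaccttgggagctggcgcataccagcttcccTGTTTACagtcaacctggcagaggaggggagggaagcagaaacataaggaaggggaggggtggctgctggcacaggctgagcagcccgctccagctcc
Of the 10 genes, 8 had an upstream window in the RefSeq table. On either strand TGTTTAC was in 2 of them (Atp6v1b1, and Avpr2 131 bases before its start), TATTTAC in 0, TGACGT in 1 and AGATAA in 1. Of 32851 windows of the same length, 3.17% held TGTTTAC, 2.73% TATTTAC, 6.47% TGACGT and 9.99% AGATAA. These matches describe the letters in the window and show no binding.

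For the knockout experiment levels are CPM scaled by TMM (trimmed mean of M-values, which corrects for RNA composition), and for the inhibitor experiment they are FPKM as deposited. A change is given as a log2 fold change ± SE from edgeR's quasi-likelihood test on counts, or from limma on log2(FPKM + 1), which understates the change of low genes. Adjusted p-values are Benjamini-Hochberg values over all 16395 genes tested with edgeR or all 15338 tested with limma, and a gene passed under 0.05. The FPKM of a column summed to 793081 to 1078591 in sham and to 406950 to 461081 in UUO. Scaling the columns to 1 total therefore moved the median log2 change of all genes with UUO from 0.08 to 0.85 with DMSO and from -0.07 to 0.72 with UNC569. Scaling the counts by library size alone moved it from 0.16 to 0.68 in wild type and from 0.23 to 0.77 under the knockout label. Relative to the median of all genes, all 10 members lay lower after UUO with DMSO and with UNC569 under each scaling tried. The counts do not measure Avpr2, for a reason given with that gene. Of the other members, 9 of 9 lay lower under the knockout label, and in wild type 8 of 9 by TMM or library size, with Aqp2 slightly above the median, and 9 of 9 by RLE factors.

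The genes of pendrin and of the exchanger of acid-secreting cells fell in all 4 comparisons of UUO with sham, by 2.54 to 4.14 on the log2 scale. Aqp2 and Aqp3 fell by 1.63 to 4.33 on the log2 scale in 3 of these comparisons, but neither passed in wild type, where 1 obstructed library held a high level of Aqp2. Avpr2 fell in both FPKM comparisons. For Scnn1b, Scnn1g, Atp6v1b1, Atp6v0d2 and Foxi1 the sign depended on the scaling in at least 1 comparison.

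**Figure D1:**
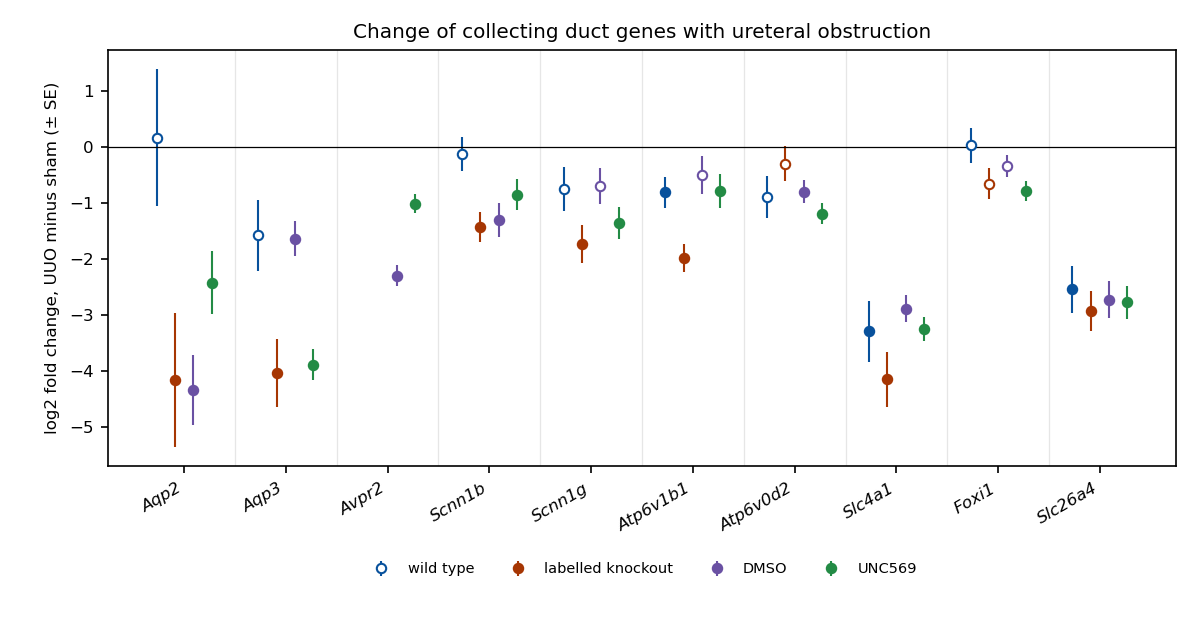
Log2 fold change (UUO minus sham, ± SE) of each gene in wild type, under the knockout label, with DMSO and with UNC569; filled points passed at an adjusted p under 0.05, and Avpr2 is shown from FPKM only. Slc4a1 and Slc26a4 lie below -2.5 in all 4 comparisons; points of Scnn1b, Scnn1g, Atp6v1b1, Atp6v0d2 and Foxi1 near 0 can change sign with another scaling.

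Slc26a4 (ENSMUSG00000020651, chr12:31519827-31559969, minus strand) encodes pendrin, the chloride-bicarbonate exchanger of base-secreting cells. In sham kidney it stood at 136, 120 and 100 CPM in wild type and at 171, 190, 211 and 90.0 CPM under the knockout label. After UUO it stood at 21.5, 19.7 and 20.2 CPM in wild type and at 34.9, 27.9, 15.4 and 9.22 CPM under the knockout label. No obstructed library overlapped the sham libraries of its genotype label. The gene fell by 2.54 ± 0.41 on the log2 scale in wild type (edgeR, adjusted p = 0.000329) and by 2.92 ± 0.36 under the knockout label (edgeR, adjusted p = 1.49e-05). In the inhibitor experiment sham kidney held 25.9, 19.98 and 25.4 FPKM with DMSO and 26.02, 17.8 and 21.7 FPKM with UNC569. After UUO it held 4.202, 3.73, 1.59 and 2.05 FPKM with DMSO, and 0.922 to 5.16 FPKM with UNC569 (median 2.07). The fall was 2.72 ± 0.33 on the log2 scale with DMSO (limma, adjusted p = 2.25e-06) and 2.77 ± 0.30 with UNC569 (limma, adjusted p = 3.65e-07), again with no overlap.

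Slc4a1 (ENSMUSG00000006574, chr11:102348824-102366203, minus strand) encodes the anion exchanger of acid-secreting cells and of red blood cells. Sham libraries of wild type held 52.3, 60.5 and 34.7 CPM, and those labelled knockout held 46.2, 45.6, 46.98 and 48.9 CPM. Obstructed libraries of wild type held 5.86, 6.27 and 2.94 CPM, and those labelled knockout held 5.59, 2.45, 2.11 and 0.594 CPM. The groups did not overlap: Slc4a1 fell by 3.29 ± 0.54 on the log2 scale in wild type (edgeR, adjusted p = 0.000339) and by 4.14 ± 0.49 under the knockout label (edgeR, adjusted p = 9.88e-06). With DMSO it went from 12.8, 18.2 and 14.4 FPKM in sham to 1.12, 1.83, 1.26 and 0.627 FPKM after UUO, a fall of 2.88 ± 0.24 on the log2 scale (limma, adjusted p = 3.49e-08). With UNC569 it went from 17.02, 19.6 and 13.5 FPKM to 0.416 to 1.92 FPKM (median 0.804), a fall of 3.24 ± 0.22 on the log2 scale (limma, adjusted p = 1.39e-09). Some red blood cell genes were lower beside it in 3 of the 4 comparisons. Of 9 fixed markers 6 could be tested. Of these, 0 were lower in wild type, 4 under the knockout label, 4 with DMSO and 3 with UNC569, while Epb42 rose in each. Of all genes 16.0%, 24.4%, 25.8% and 34.5% were lower in that order. The summed level of the 9 markers was 198 to 406 CPM in sham and 154 to 360 CPM in obstructed wild-type kidney. Under the knockout label it was 200.4 to 499 CPM in sham and 44.5 to 196 CPM after UUO. With DMSO the sum was 526 to 1422 FPKM in sham and 169.7 to 249.7 FPKM after UUO, and with UNC569 it was 472 to 929 and 150.3 to 206 FPKM. Rhag, a membrane protein gene of red blood cell precursors, reached at most 0.523 CPM in any library used. The part of red blood cells in the level of Slc4a1 was not tested.

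Atp6v1b1 (ENSMUSG00000006269, chr6:83742990-83758855, plus strand) encodes the B subunit of the proton pump that intercalated cells use. Sham libraries of wild type held 119, 99.9 and 132 CPM, and those labelled knockout held 177, 194, 207 and 115 CPM. After UUO the levels were 53.3, 82.9 and 64.1 CPM for wild type and 57.9, 54.4, 33.6 and 29.4 CPM for the knockout label, below every sham library of the same label. It fell by 0.81 ± 0.28 on the log2 scale in wild type (edgeR, adjusted p = 0.0357) and by 1.98 ± 0.25 under the knockout label (edgeR, adjusted p = 1.87e-05). The wild-type call ended when counts were scaled by library size (log2 -0.28, adjusted p = 0.398 with edgeR). It also ended without any one of sham WT 2 (-0.86, adjusted p = 0.0612), sham WT 4 (-0.75, 0.0732), UUO WT 2 (-0.67, 0.138) and UUO WT 4 (-0.78, 0.102). In the inhibitor experiment the groups overlapped. With DMSO, sham columns held 5.91, 9.36 and 11.2 FPKM and UUO columns 4.17, 7.56, 8.21 and 4.15 FPKM, a difference of -0.50 ± 0.34 that did not pass (limma, adjusted p = 0.228) and that became 0.37 with columns scaled to 1 total. With UNC569, sham columns held 10.8, 8.53 and 8.82 FPKM and UUO columns 2.62 to 9.34 FPKM (median 4.68). That fall of 0.78 ± 0.31 on the log2 scale passed (limma, adjusted p = 0.0354, 5 of 7 columns below all sham columns) but became 0.10 with columns scaled to 1 total. It was lost by median-of-ratios scaling (limma, adjusted p = 0.101). It was also lost without any one of the 3 sham UNC569 columns (adjusted p from 0.0615 to 0.118 with limma) or of the obstructed UNC569 columns 0 to 3 (0.0509 to 0.0631).

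Atp6v0d2 (ENSMUSG00000028238, chr4:19876841-19922605, minus strand) encodes a d subunit of the pump's membrane sector and is also known from osteoclasts and macrophages. In wild type it stood at 91.9, 69.7 and 35.4 CPM in sham and 23.6, 36.6 and 46.03 CPM after UUO, with an overlap and no call by edgeR's quasi-likelihood test (log2 -0.89 ± 0.37, adjusted p = 0.0676; DESeq2 adjusted p = 0.0279). In mice labelled knockout it stood at 55.3, 58.0, 60.8 and 30.5 CPM in sham and 35.3, 61.8, 33.5 and 36.1 CPM after UUO, where UUO KO 2 lay above every sham library. That difference was -0.29 ± 0.31 (edgeR, adjusted p = 0.437), and 0.24 by library size scaling. With DMSO the levels were 16.9, 11.6 and 12.3 FPKM in sham and 10.4, 7.58, 5.58 and 6.37 FPKM after UUO, a fall of 0.80 ± 0.21 on the log2 scale (limma, adjusted p = 0.00361) that became 0.10 with columns scaled to 1 total. With UNC569 they were 22.8, 16.2 and 17.5 FPKM in sham and 5.75 to 10.2 FPKM after UUO (median 7.97), a fall of 1.19 ± 0.19 (limma, adjusted p = 3.09e-05) that kept its sign but lost its call with columns scaled to 1 total (log2 -0.25, adjusted p = 0.214). Macrophage genes rose beside it: 11 of 12 fixed markers passed upward in wild type and under the knockout label. Of all 16395 genes tested, 3828 and 5693 passed upward in that order. The osteoclast enzyme gene Acp5 passed downward in both. The summed level of the 12 markers went from 152 to 260.0 CPM in sham to 1190.0 to 2375 CPM after UUO in wild type. Under the knockout label it went from 151 to 261 CPM to 1583 to 2739 CPM. The part of macrophages in the level of Atp6v0d2 was not tested.

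Foxi1 (ENSMUSG00000047861, chr11:34204338-34208089, minus strand) encodes the forkhead factor of intercalated cells, and it passed in 1 of the 4 comparisons. Wild-type levels were 21.04, 42.6 and 41.9 CPM in sham and 30.4, 36.2 and 41.2 CPM after UUO. The obstructed libraries lay within the range of the sham libraries, and the log2 difference was 0.03 ± 0.31 (edgeR, adjusted p = 0.939), with a negative sign by DESeq2 (-0.054) and RLE factors (-0.053). Under the knockout label it stood at 41.5, 42.9, 67.2 and 37.2 CPM in sham and 31.05, 39.8, 30.6 and 18.9 CPM after UUO. Those groups overlapped by 1 library, and the log2 difference of -0.65 ± 0.27 missed the threshold (edgeR, adjusted p = 0.05; DESeq2, 0.0186). With DMSO the levels were 24.5, 25.9 and 28.3 FPKM in sham and 22.2, 19.9, 24.002 and 16.5 FPKM after UUO, with a difference of -0.34 ± 0.19 (limma, adjusted p = 0.146) that became 0.61 with columns scaled to 1 total (limma, adjusted p = 0.0129). With UNC569 they were 28.97, 27.3 and 31.2 FPKM in sham and 13.2 to 23.2 FPKM after UUO (median 14.0), with no overlap. That fall of 0.78 ± 0.18 on the log2 scale passed (limma, adjusted p = 0.00088) and became 0.19 with columns scaled to 1 total (adjusted p = 0.372).

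**Figure D2:**
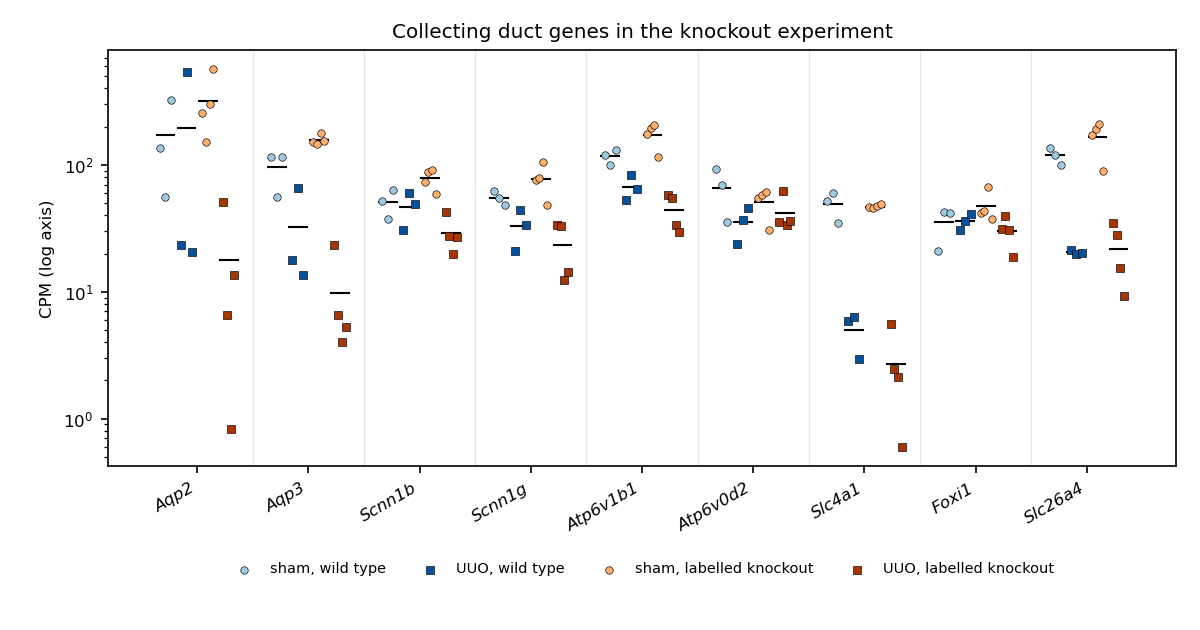
CPM on a log axis of each gene in every library used of the knockout experiment; circles are sham, squares are UUO, and bars are group means. UUO libraries of Scnn1g, Atp6v1b1, Slc4a1 and Slc26a4 lie below all sham libraries, and 1 obstructed wild-type library holds Aqp2 at 538 CPM. The share of all genes so separated was not counted.

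Aqp2 (ENSMUSG00000023013, chr15:99579055-99584547, plus strand) encodes the apical, vasopressin-regulated water channel. Its changes had the largest SE of the 9 members measured by the counts. In wild type it stood at 137, 55.7 and 324 CPM in sham and at 23.3, 538 and 20.6 CPM after UUO. The library UUO WT 3 was above every sham wild-type library, and the other obstructed libraries were below all of them. A bad fastq file was noted for UUO WT 3, and also for UUO WT 4, sham WT 3, sham WT 4 and sham KO 2. The log2 difference was 0.17 ± 1.22 (edgeR, adjusted p = 0.923), and -2.97 without UUO WT 3 (adjusted p = 0.0693). UUO WT 3 was the highest obstructed wild-type library in 6 of the 9 members measured, but not in Foxi1 or Atp6v0d2, and it was the lowest in Slc26a4. Of the other principal cell genes it was the highest in 11 of 11, and of the other intercalated cell genes in 10 of 16. It was also the highest in 14 of 16 widely expressed V-ATPase genes and in 8 of 12 proximal tubule genes. Of the thick limb and distal tubule genes ranked, it was the highest in 9 of 11. The principal cell channel gene Aqp4 stood there at 28.99 CPM, against 3.54 and 0.948 CPM in UUO WT 2 and UUO WT 4. Fxyd4, a sodium pump regulator of the collecting duct, stood at 76.6, against 21.6 and 21.1 CPM, and Slc12a1, the sodium transporter of the thick ascending limb, at 598, against 92.2 and 96.0 CPM. The 12 markers of thick limb and distal tubule summed to 2541 CPM there, against 883 and 998 CPM. Whether the sampled part of the kidney differed between libraries was not tested.

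Under the knockout label Aqp2 stood at 256, 151, 302 and 566 CPM in sham and at 50.9, 6.56, 0.827 and 13.5 CPM after UUO. The groups did not overlap, and Aqp2 fell by 4.15 ± 1.20 on the log2 scale (edgeR, adjusted p = 0.00848). The highest sham library, sham KO 4, was also the highest of its group in Aqp4, at 66.4 CPM against 0.510 to 2.23 CPM. It was the lowest of its group in 6 of the 9 members measured (Scnn1b, Scnn1g, Atp6v1b1, Atp6v0d2, Foxi1 and Slc26a4). Without sham KO 4 and UUO WT 3 the fall remained past the threshold, as it did without any single library (adjusted p of at most 0.0273 with edgeR). In the inhibitor experiment Aqp2 went from 389, 724 and 580 FPKM in sham to 58.4, 74.3, 7.52 and 13.3 FPKM after UUO with DMSO, a fall of 4.33 ± 0.63 (limma, adjusted p = 1.54e-05). With UNC569 it went from 265, 329 and 240.1 FPKM to 26.8 to 131 FPKM (median 39.8), a fall of 2.42 ± 0.57 (limma, adjusted p = 0.0013). No obstructed column reached a sham column of its treatment.

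Aqp3 (ENSMUSG00000028435, chr4:41092722-41098183, minus strand) encodes the basolateral water channel of principal cells. In wild type it stood at 116, 55.8 and 115 CPM in sham and 17.9, 65.2 and 13.6 CPM after UUO, with UUO WT 3 again the highest. The log2 difference of -1.57 ± 0.63 missed the threshold with edgeR (adjusted p = 0.0614), and passed with DESeq2 (0.0162), with RLE factors (0.0485) and with edgeR without any one of UUO WT 3 (-2.60, adjusted p = 0.00608), sham WT 3 (-1.94, 0.0335) and UUO KO 1 (-1.58, 0.0182). With the knockout label the levels were 152, 147, 177 and 155.5 CPM in sham and 23.2, 6.50, 4.00 and 5.31 CPM after UUO. Aqp3 fell by 4.03 ± 0.60 on the log2 scale, with no overlap (edgeR, adjusted p = 7.11e-05). With DMSO it went from 64.4, 70.4 and 80.2 FPKM to 27.8, 27.6, 22.1 and 14.6 FPKM, a fall of 1.63 ± 0.31 (limma, adjusted p = 0.000247) that kept its sign but lost its call with columns scaled to 1 total (log2 -0.66, adjusted p = 0.081). With UNC569 it went from 81.7, 118 and 148 FPKM to 4.15 to 11.9 FPKM (median 5.94), a fall of 3.88 ± 0.28 (limma, adjusted p = 3.21e-09).

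The ENaC subunit genes Scnn1b (ENSMUSG00000030873, chr7:121865038-121918514, plus strand) and Scnn1g (ENSMUSG00000000216, chr7:121734479-121768475, plus strand) are neighbours on chromosome 7. In wild type Scnn1b stood at 51.6, 37.2 and 63.5 CPM in sham and 30.8, 59.7 and 49.2 CPM after UUO. These overlapped, and the log2 difference was -0.13 ± 0.30 (edgeR, adjusted p = 0.764), or 0.41 by library size scaling. Scnn1g stood at 62.6, 54.4 and 48.6 CPM in sham and 20.8, 44.1 and 33.9 CPM after UUO, without overlap and short of the threshold (log2 -0.75 ± 0.39, edgeR, adjusted p = 0.146). In mice labelled knockout Scnn1b stood at 73.9, 88.3, 91.6 and 58.9 CPM in sham and 42.5, 27.3, 19.7 and 27.2 CPM after UUO. It fell by 1.42 ± 0.26 on the log2 scale (edgeR, adjusted p = 0.000399). There Scnn1g stood at 75.3, 78.8, 105.5 and 48.1 CPM in sham and 33.3, 32.9, 12.4 and 14.4 CPM after UUO. It fell by 1.73 ± 0.35 (edgeR, adjusted p = 0.000701), and both genes kept their calls by library size scaling.

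With DMSO, Scnn1b went from 42.4, 45.1 and 46.8 FPKM to 22.5, 24.4, 13.5 and 12.7 FPKM, a fall of 1.302 ± 0.31 on the log2 scale (limma, adjusted p = 0.00161; log2 -0.34 and adjusted p = 0.319 with columns scaled to 1 total). Scnn1g held 14.7, 17.5 and 14.1 FPKM in sham and 11.8, 14.1, 7.07 and 5.67 FPKM after UUO. Its difference of -0.70 ± 0.32 did not pass (limma, adjusted p = 0.0735) and became 0.22 with columns scaled to 1 total. With UNC569, Scnn1b went from 35.9, 32.9 and 32.99 FPKM to 11.3 to 32.8 FPKM (median 17.1). That fall of 0.85 ± 0.28 passed (limma, adjusted p = 0.0131), and became 0.13 with columns scaled to 1 total. Scnn1g went from 22.8, 27.3 and 21.97 FPKM to 4.94 to 16.0 FPKM (median 8.05), a fall of 1.36 ± 0.29 (limma, adjusted p = 0.000549; log2 -0.41 and adjusted p = 0.223 with columns scaled to 1 total). The third subunit gene, Scnn1a, fell in all 4 comparisons by the scaling used in the text. Its fall was 0.87 ± 0.33 on the log2 scale in wild type (edgeR, adjusted p = 0.0481) and 2.05 ± 0.29 under the knockout label (edgeR, adjusted p = 4.64e-05). It was 1.86 with DMSO (limma, adjusted p = 1.96e-07) and 2.07 with UNC569 (limma, adjusted p = 9.06e-09). Values of Scnn1a under the other scalings are not reported here.

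Avpr2 (ENSMUSG00000031390, chrX:73892102-73895502, plus strand), the vasopressin receptor gene, was not measured by the counts. Of its 2886 exon bases in GENCODE M21, 81.32% are shared with Arhgap4 on the other strand, and counting without strand assigns a read in both to neither. It had 0 to 23 reads in each library used, against 26.1 to 40.4 FPKM in sham kidney with DMSO. Its apparent rise in wild type (log2 6.39 ± 1.90, edgeR, adjusted p = 0.0185, from 0 reads in all 3 sham libraries) therefore says nothing of its level, and FPKM without strand cannot separate the pair either. In FPKM it went from 26.1, 40.4 and 36.5 in sham to 6.13, 6.75, 7.11 and 4.67 after UUO with DMSO, a fall of 2.29 ± 0.19 on the log2 scale with no overlap (limma, adjusted p = 3.4e-08). With UNC569 it went from 16.5, 19.98 and 16.5 FPKM to 6.60 to 11.4 FPKM (median 7.99), a fall of 1.01 ± 0.17 (limma, adjusted p = 6.86e-05) that lost its call with columns scaled to 1 total (log2 -0.07, adjusted p = 0.755). Arhgap4 itself ranged from 9.54 to 12.9 FPKM in sham and 6.89 to 9.72 FPKM in obstructed kidney with DMSO.

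**Figure D3:**
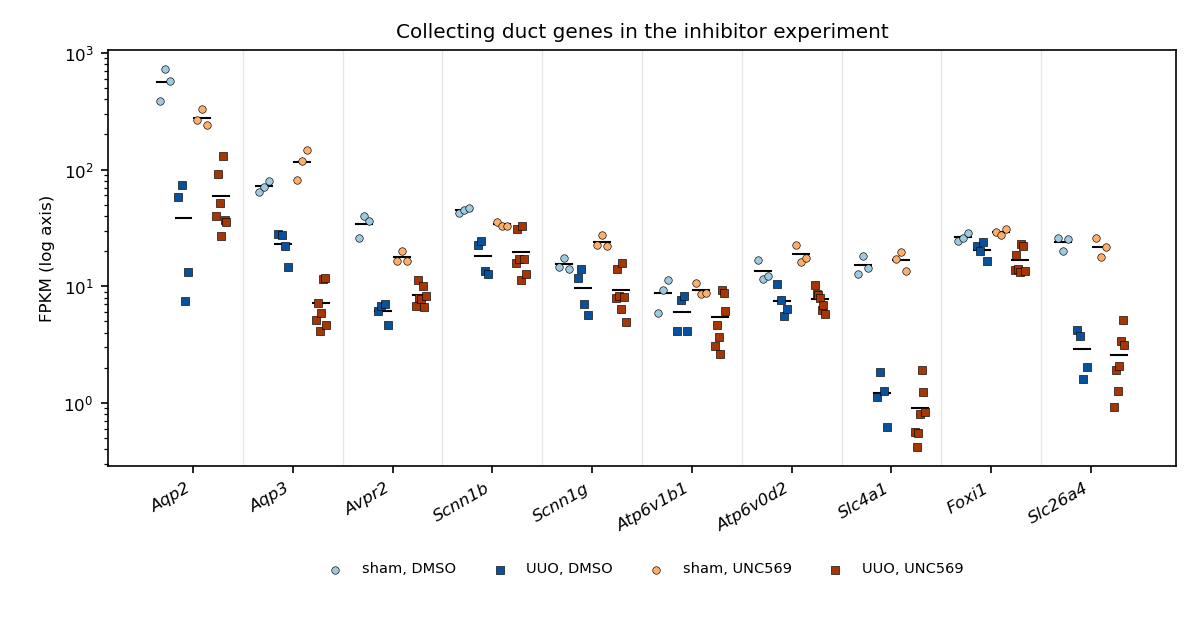
FPKM on a log axis of the 10 genes in every column of the inhibitor experiment; circles are sham, squares are UUO, and bars are group means. Aqp2 is the highest member in sham kidney. UUO columns lie below all sham columns of the same treatment for every member except Scnn1g with DMSO and Atp6v1b1. The share of all genes without overlap was not counted.

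Counted over the 10 genes, 3 were lower and 1 (Avpr2, not measured by these counts) higher after UUO in wild type, where 16.0% of all genes tested passed downward and 23.3% upward. Under the knockout label 7 were lower, against 24.4% of all genes. With DMSO 7 were lower, against 25.8% of all genes, and with UNC569 10 were lower, against 34.5%. The median log2 change was -0.81 in wild type and -1.98 under the knockout label over the 9 members without Avpr2 (-0.78 and -1.86 with it). Over all 10 it was -1.47 with DMSO and -1.27 with UNC569, and the medians of all genes were 0.16, 0.23, 0.08 and -0.07 in these 4 comparisons. The wild-type and knockout-label comparisons share a fit and no libraries, as do those with DMSO and UNC569. With columns scaled to 1 total, 4 genes still passed downward with DMSO (Aqp2, Avpr2, Slc4a1 and Slc26a4) and 4 with UNC569 (Aqp2, Aqp3, Slc4a1 and Slc26a4). In that scaling 9.14% of all genes passed downward with DMSO and 11.4% with UNC569.

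FPKM is per length and allows an order of levels. In sham kidney with DMSO Aqp2 stood first at 564 ± 168 FPKM (SD, n = 3), Aqp3 at 71.6 ± 8.0 and Scnn1b at 44.7 ± 2.2. Avpr2 (34.3 ± 7.4), Foxi1 (26.2 ± 2.0) and Slc26a4 (23.8 ± 3.3) followed, with Foxi1 overlapping each of the other two in range. Scnn1g, Slc4a1 and Atp6v0d2 overlapped one another, and Atp6v1b1 (8.83 ± 2.69) came last, with its highest column below the lowest of Atp6v0d2. After UUO with DMSO Aqp2 was at 38.4 ± 33.03 FPKM (SD, n = 4), a range that covers Aqp3, Foxi1 and Scnn1b, and Slc26a4 (2.89 ± 1.27) and Slc4a1 (1.21 ± 0.50) had the lowest means. Foxi1 was then at rank 3 of 10, at 20.6 ± 3.2 FPKM.

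Between genotype labels no member passed. In sham kidney edgeR called 0 of 10 (0.0061% of all genes passed), with adjusted p-values from 0.313 to 0.956, and DESeq2 called 0. By edgeR 1 member had an unadjusted p under 0.05, as did 2575 of all 16395 genes. In obstructed kidney edgeR again called 0 (0.0% of all genes), and DESeq2 called 0. By edgeR 4 members had an unadjusted p under 0.05 there (Aqp2, Aqp3, Scnn1b and Atp6v1b1), as did 1902 of all 16395 genes. There Aqp3 was lower under the knockout label by 1.73 ± 0.59 on the log2 scale, with 3 of 4 libraries below all wild-type libraries (edgeR, adjusted p = 0.43). Aqp2 differed by -3.44 ± 1.20 (edgeR, adjusted p = 0.43), and by -0.30 without UUO WT 3.

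The difference between the UUO responses of the labels was also called for 0 of 10 by edgeR (0.0% of all genes). An unadjusted p under 0.05 was reached by 5 members and by 4466 of all 16395 genes. DESeq2 called 3, all with a larger fall under the knockout label, where it called 3.14% of all genes in that direction: Aqp3 (log2 -2.42, adjusted p = 0.0374), Scnn1b (-1.28, adjusted p = 0.0406) and Atp6v1b1 (-1.16, adjusted p = 0.0466). By edgeR these differences were -2.45 ± 0.83 (adjusted p = 0.106), -1.29 ± 0.40 (adjusted p = 0.0969) and -1.17 ± 0.38 (adjusted p = 0.099). Without sham WT 4 edgeR called the same 3 genes, but then also 3063 of all 16983 genes in that direction.

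UNC569 went with a lower Aqp3 in obstructed kidney. The 7 UNC569 columns, at 4.15 to 11.9 FPKM, all lay below the 4 DMSO columns, at 14.6 to 27.8 FPKM, a difference of -1.60 ± 0.26 (limma, adjusted p = 0.0102). It was the 1 member called lower, where 1.05% of all genes passed downward, and the call was lost without the DMSO column numbered 1 (log2 -1.4999, adjusted p = 0.0637). The other 9 members had adjusted p-values of 0.203 to 0.93 with limma. In sham kidney the same contrast ran the other way for Aqp3, at 0.65 ± 0.33 without passing (limma, adjusted p = 0.18), and the fall with UUO was larger with UNC569 than with DMSO by 2.25 ± 0.42 on the log2 scale (limma, adjusted p = 0.00219). For that difference between responses 13.4% of all genes passed downward and 6.17% upward, and of the members Aqp3 passed downward and Avpr2 upward. Aqp2 had a difference of 1.92 ± 0.85, a smaller fall with UNC569, which did not pass (limma, adjusted p = 0.119) but did without the obstructed DMSO column numbered 1 (2.41, adjusted p = 0.0445).

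Urothelium, the lining of the renal pelvis, also expresses Aqp3. Its 8 markers summed to 288 to 361 FPKM in obstructed kidney with DMSO and to 40.3 to 204 FPKM with UNC569, and to 23.9 to 66.6 and 2.00 to 17.5 FPKM in sham. Between these obstructed groups 4 of 8 were lower with UNC569, the uroplakin genes Upk1a, Upk1b, Upk2 and Upk3a (Upk1a: log2 -2.14 ± 0.35, limma, adjusted p = 0.0102). Of all genes 1.05% were lower in that contrast. Within the UUO groups of the knockout experiment the sum ran from 56.8 to 184 CPM in wild type and from 32.3 to 243 CPM under the knockout label. The part of urothelium in the difference of Aqp3 was not tested.

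**Figure D4:**
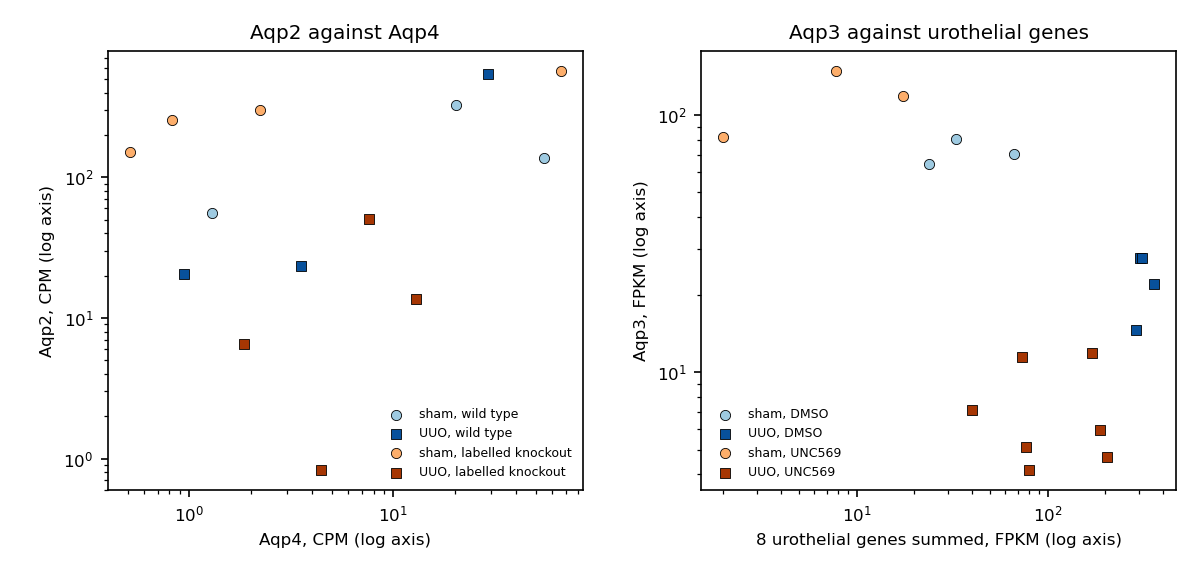
Left, Aqp2 against Aqp4 in CPM for the 14 libraries used of the knockout experiment; right, Aqp3 against the summed FPKM of 8 urothelial genes for the 17 columns of the inhibitor experiment (all axes logarithmic). The obstructed wild-type library with Aqp2 at 538 CPM holds Aqp4 at 28.99 CPM, and obstructed columns with UNC569 lie below those with DMSO on both axes at the right.

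In sham kidney UNC569 went with a lower Avpr2, at 16.5, 19.98 and 16.5 FPKM against 26.1, 40.4 and 36.5 FPKM, without overlap (log2 -0.90 ± 0.20, limma, adjusted p = 0.00654). It was the 1 member called, where 6.05% of all genes passed downward, and the other 9 had adjusted p-values of 0.169 to 0.878. Since the obstructed groups stood at 4.67 to 7.11 FPKM with DMSO and 6.60 to 11.4 FPKM with UNC569, the response to UUO was smaller with UNC569 by 1.29 ± 0.26 (limma, adjusted p = 0.00324). Arhgap4, which shares its exons, stood at 5.01 to 10.1 FPKM with UNC569 and 9.54 to 12.9 FPKM with DMSO in sham kidney. In obstructed kidney Arhgap4 was at 7.38 to 14.9 and 6.89 to 9.72 FPKM in that order. These ranges overlap, and the reads of both genes cannot be told apart without strand.

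Other genes of the same cells were read from fixed lists. Of 16 other intercalated cell genes, 6 were lower and 0 higher after UUO in wild type, 11 lower and 2 higher under the knockout label, 11 lower and 2 higher with DMSO (14 tested), and 12 lower and 1 higher with UNC569 (14 tested). Of all genes 16.0%, 24.4%, 25.8% and 34.5% were lower in that order. Car12, a membrane carbonic anhydrase, fell by 2.29 on the log2 scale in wild type (edgeR, adjusted p = 0.000525) and Insrr, a receptor kinase that senses alkali, by 2.04 (edgeR, adjusted p = 0.00168). The pump genes Atp6v1c2 and Atp6v0a4 fell by 1.78 and 1.65 in wild type, and all 4 of these genes passed downward in the other 3 comparisons. The genes that rose were Kit, a receptor kinase, and Dmrt2, a transcription factor. Kit rose by 1.00 ± 0.25 under the knockout label (edgeR, adjusted p = 0.00324), 0.76 ± 0.19 with DMSO (limma, adjusted p = 0.00316) and 0.41 ± 0.18 with UNC569 (limma, adjusted p = 0.0493). Dmrt2 rose by 1.10 ± 0.37 under the knockout label (edgeR, adjusted p = 0.0182) and 0.92 ± 0.28 with DMSO (limma, adjusted p = 0.00903). The median of the list was -0.94 in wild type, -1.67 under the knockout label, -1.56 with DMSO and -1.44 with UNC569.

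Of 11 other principal cell genes, 3 were lower and 1 higher in wild type, 5 lower under the knockout label, 6 with DMSO and 8 with UNC569, with medians of -0.15, -0.66, -1.11 and -0.82. Of all genes 16.0%, 24.4%, 25.8% and 34.5% were lower in that order, and 23.3% were higher in wild type. Fxyd4 stood at 0.77 ± 0.52 in wild type and -0.67 ± 0.45 under the knockout label, neither passing (edgeR, adjusted p = 0.259 and 0.213). Kcnj1, the potassium channel of the apical membrane, fell in all 4 comparisons, by 1.75 ± 0.41 in wild type (edgeR, adjusted p = 0.00381). Nr3c2, the aldosterone receptor gene, fell by 0.88 in wild type (edgeR, adjusted p = 0.0117) and stood at -0.16 with DMSO (limma, adjusted p = 0.433). Adcy6, an adenylyl cyclase that makes cAMP, was the 1 gene higher in wild type, by 0.53 (edgeR, adjusted p = 0.0284), and stood at -0.27 under the knockout label without passing (adjusted p = 0.146).

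Many pump subunits that all cells use were lower as well, by the scaling used in the text. Of 16 such genes 7 were lower and 1 higher in wild type, 10 lower under the knockout label, 13 with DMSO and 11 lower and 1 higher with UNC569. Of all genes 16.0%, 24.4%, 25.8% and 34.5% were lower in that order. The list medians were -0.47, -0.91, -1.03 and -0.86. Values under the other scalings, which moved the median of all genes, are not reported here. Atp6v1b2, the widely expressed counterpart of Atp6v1b1, fell by 1.01 in wild type (edgeR, adjusted p = 0.000641), 1.34 under the knockout label (edgeR, adjusted p = 9.18e-06), 1.17 with DMSO (limma, adjusted p = 7.14e-06) and 1.28 with UNC569 (limma, adjusted p = 4.96e-07). Atp6v0d1, the counterpart of Atp6v0d2, fell by 0.55, 0.83, 1.05 and 0.99 in that order, with adjusted p-values of 0.0193 and 0.000275 by edgeR and 2.08e-06 and 8.37e-07 by limma. Atp6v1a, Atp6v1h and Atp6v1e1 fell in all 4 comparisons too, Atp6v1a by 1.79 in wild type (edgeR, adjusted p = 3.89e-05).

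Markers of other cells give the setting. All 12 proximal tubule markers fell in each of the 4 comparisons, with medians of -3.94, -4.28, -4.33 and -4.46, among them Lrp2 and Cubn, the protein uptake receptors, by 3.53 and 3.09 in wild type (edgeR, adjusted p = 0.000242 and 7.13e-05). Of 12 thick limb and distal tubule markers 5, 8, 8 and 8 were lower, with medians of -0.97, -2.08, -2.03 and -1.24. The shares of all genes lower were 16.0%, 24.4%, 25.8% and 34.5%. Egf, made in the thick limb and distal tubule, fell by 5.72 in wild type (edgeR, adjusted p = 0.000467), and Calb1, a calcium-binding protein of the distal tubule, by 5.04 (edgeR, adjusted p = 0.000246). Macrophage markers rose, C1qc by 4.10 and Lyz2 by 5.04 in wild type (edgeR, adjusted p = 1.95e-05 and 8.57e-06). Of 8 urothelial markers 2, 6, 8 and 6 were higher, with medians of 2.83, 3.19, 2.76 and 2.16. In wild type 23.3% of all genes passed upward, and under the knockout label 5693 of 16395 did. With DMSO 4560 of 15338 genes passed upward, and with UNC569 4224 of 15338. Among the urothelial markers Krt20 rose in all 4 comparisons, by 8.25 in wild type (edgeR, adjusted p = 8.57e-06).

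**Figure D5:**
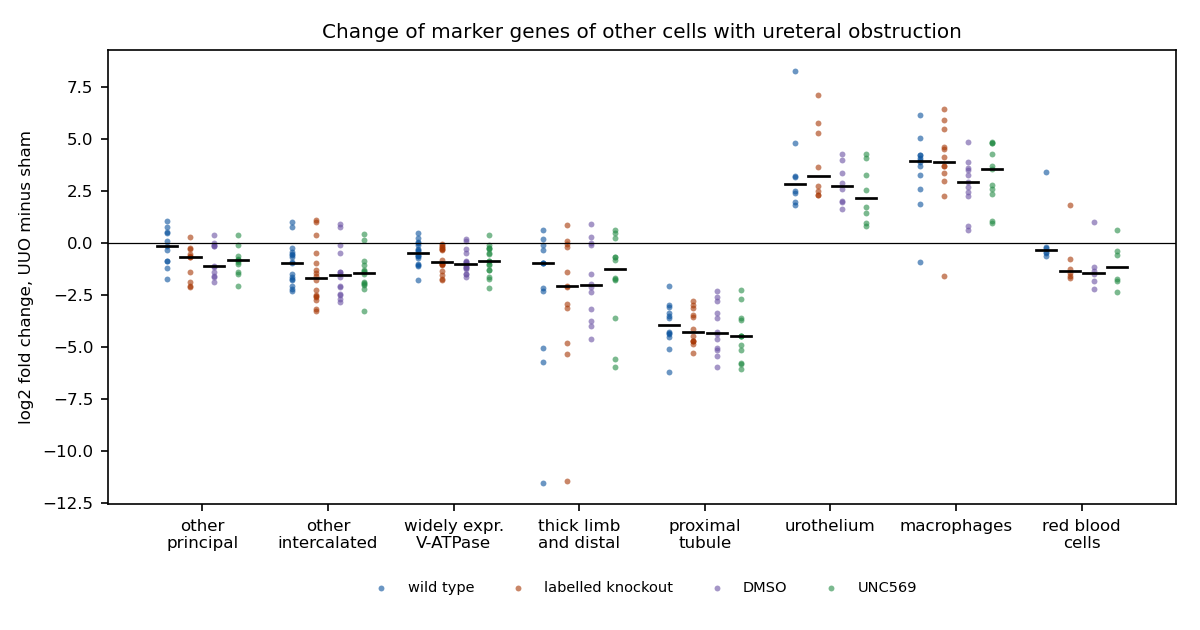
Log2 fold change (UUO minus sham) of each tested gene of 8 marker lists in the 4 comparisons; bars are medians. The proximal tubule medians lie between -3.94 and -4.46, those of other principal cell genes between -0.15 and -1.11 and those of other intercalated cell genes between -0.94 and -1.67, all by the scaling used in the text.

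Members tended to vary together within groups, also across the cell types. After subtracting group means, the median Pearson correlation between pairs of principal cell genes was 0.72 over the 14 libraries (6 pairs, without Avpr2) and 0.57 over the 17 columns (10 pairs). For pairs of intercalated cell genes it was 0.49 and 0.50 (10 pairs each), and across the cell types 0.41 (20 pairs) and 0.37 (25 pairs). The highest pair across cell types in the counts was Scnn1g with Atp6v1b1, at 0.90, and the lowest, leaving out Avpr2, was Aqp2 with Atp6v0d2, at -0.18. In the inhibitor experiment Atp6v0d2 ran against its own cell type, at -0.59 with Atp6v1b1 and -0.39 with Slc4a1. These values share libraries and depth, were not set against pairs of other genes, and are descriptions.

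The genes most like Aqp2 were taken by the smaller of their Pearson correlations over the 14 libraries and the 17 columns. They were Uqcr10 and Chchd10 (mitochondrial proteins), Slc5a10 (a sugar transporter), Ppp1r1a (a phosphatase inhibitor) and Rdh16f2, with correlations of 0.92 to 0.94 in the experiments and, within groups, 0.87 to 0.93 over libraries and 0.65 to 0.80 over columns. Among those most like Atp6v1b1 were Actr1b, Fuk, Elmo3 and Polrmt, with correlations of 0.89 to 0.94 over libraries and 0.83 to 0.88 over columns. Within groups these were 0.37 to 0.60 over libraries and 0.76 to 0.88 over columns. None of the genes named here for likeness was a member of a fixed list.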

How the data were processed

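Kidney mRNA libraries were made with a TruSeq v2 kit, which does not keep strand, and read at 100 bases, per the labels' protocols. The tools and builds named, without roles or versions, are edgeR, STAR, Trim Galore, FastQC, mm10 and hg38, per the submitters' processing notes. The knockout experiment was deposited as raw counts of reads per gene, 1 STAR table per library, of which the unstranded column was taken here. The inhibitor experiment was deposited as FPKM, and the tool that made it is not given in the sources used here.

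Counts were fitted in R 4.3.3 with edgeR 4.0.16 (filterByExpr, TMM, quasi-likelihood F test, 1 term per group) in 1 fit of 4 groups. FPKM of at least 1 in at least 3 columns were fitted with limma 3.58.1 on log2(FPKM + 1), with the prior variance following the mean level, also in 1 fit. Correlations used log2 CPM with a prior count of 2. Other settings were DESeq2 1.42.0, RLE factors, unfiltered genes, a replicate block, median-of-ratios scaling and a pseudocount of 0.1. The libraries left out were also kept, those with a noted bad fastq file were dropped, and each library was dropped in turn. Library size scaling, columns scaled to 1 total, keeping UUO WT 1, and dropping sham KO 4 with UUO WT 3 were chosen after seeing the data.

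Members and marker lists were chosen with earlier results of these data known. All 10 members are described. Of each list, up to 4 genes with the smallest p in UUO against sham of wild type could be named, plus Scnn1a, Atp6v1b2 and Atp6v0d1, and for Aqp2 and Atp6v1b1 the 5 most alike genes. Some genes that these rules give are not reported here. Aqp4, Fxyd4, Slc12a1, Upk1a, Upk3a, Kit, Dmrt2, Acp5, Rhag and Arhgap4 were named after their values were seen. No pair of libraries held identical values (highest rank correlation 0.965). On simulated counts edgeR recovered 18% of genes changed 2-fold and 72% of those changed 4-fold among 16395 genes, with 4 false calls. On simulated FPKM limma recovered 70% and 99% among 15338 genes, with 11 false calls.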

Additional observations from a re-analysis of the deposited data

Results flagged for a closer look

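In the groups of 4 to 10 libraries, 38 combinations of gene and group were examined for a library far from the rest, which chance gives in about 1 of 20, and 2 were found. Aqp3 in UUO KO 1 stood at 23.2 CPM, against 4.00 to 6.50 CPM in the other obstructed libraries under the knockout label. Atp6v0d2 in UUO KO 2 stood at 61.8 CPM, against 33.5 to 36.1 CPM in the other 3. The response to UUO differed between UNC569 and DMSO for 2 members by the test of the difference itself in limma: Aqp3 at -2.25 on the log2 scale (adjusted p = 0.00219) and Avpr2 at 1.29 (adjusted p = 0.00324).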

How the results depend on the processing

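Slc4a1 and Slc26a4 kept their direction in the 4 comparisons of UUO with sham under every alternative run and their call in all but 1, Slc26a4 in wild type with both left-out libraries kept (log2 -2.63, adjusted p = 0.0883 with edgeR). With sham WT 1 and UUO WT 1 kept, 2 members were called in wild type (1 lower, where 17.6% of all genes were) and 3 under the knockout label (21.7%). With UUO WT 1 kept, 4 were called under the knockout label (25.5%). DESeq2 called 3 differences of response between labels (3.14% of all genes), and with columns scaled to 1 total 4 members were lower with UNC569 (11.4%). Leaving out each library in turn gave 2 to 5 calls in wild type, 7 to 8 under the knockout label, 0 to 3 for the response difference between labels (3 without sham WT 4, where 3063 of 16983 genes passed in that direction), 7 to 8 with DMSO, 9 to 10 with UNC569 and 0 to 1 for UNC569 against DMSO after UUO (0 without the obstructed DMSO column 1). The log2 sign turned in wild type for Aqp2 with UUO WT 1 kept (-0.33) and without sham KO 4 and UUO WT 3 (-2.97), with -2.97 to 0.97 over single libraries left out. It also turned for Aqp2 without libraries with a bad fastq file (-2.62), which left sham WT 2 and UUO WT 2 alone in wild type. The sign turned for Scnn1b by library size (0.41, and -0.41 to 0.10 over libraries left out). It turned for Foxi1 by DESeq2 (-0.054), RLE (-0.053), no filter (-0.11), both libraries kept (-0.059) and UUO WT 1 kept (-0.46), with -0.28 to 0.17 over libraries left out. Under the knockout label Atp6v0d2 turned by library size (0.24). With columns scaled to 1 total, Scnn1g (0.22), Atp6v1b1 (0.37), Atp6v0d2 (0.10) and Foxi1 (0.61) turned with DMSO, and Scnn1b (0.13), Atp6v1b1 (0.10) and Foxi1 (0.19) with UNC569. The cause was not tested beyond the shift of the median of all genes given with the results. The depth behind FPKM is unknown.

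Replicate numbers are shared by the groups of the knockout experiment but gave no sign of pairing. After subtracting group means, the 19 same-numbered pairs correlated at -0.29 to 0.17, 4 of them over 0.1. The 54 other pairs correlated at -0.20 to 0.27, 14 of them over 0.1, and 1 of 14 libraries correlated best with its own number. With 3 or 4 libraries behind each group mean, this cannot exclude pairing. With a replicate block, 4 members were called in wild type and 7 under the knockout label, as without it, and the log2 change of Aqp2 in wild type was -0.090.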
